A study of Mus musculus with 15 samples.

Results

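The interferon response genes described here are a list of 41 genes of the mouse that interferons are known to switch on, from the transcription factors of the pathway to its antiviral effectors. They were picked out of the count table by gene symbol. Of the 41, 39 had a row among the 21702 genes of the table, and Mx1 and Mx2 were not analysed here. All 39 passed the filter on low counts that left 12172 genes for testing. RNA was sequenced from whole livers of 15 female wild-type C57BL/6 mice (C57BL/6N in the methods of the study) in 5 groups of 3. Every mouse, including the non-pregnant (NP) ones, had received an adeno-associated virus of serotype 8 (AAV8) through the tail vein. AAV8-null is the control virus, and AAV8-p21 carries the cDNA of p21, an inhibitor of cyclin-dependent kinases. The TBG promoter of the virus is active in hepatocytes, so p21 was added to hepatocytes and not to the other cells of the liver. AAV8-null mice were sampled as NP and at 8 and 16 days post-coitum (dpc), and AAV8-p21 mice at 8 and 16 dpc. The study compared these groups to find what the liver expresses when its hepatocytes cannot divide in pregnancy. No NP group with AAV8-p21 and no group without virus was analysed here. The virus was given before mating, so the stage of pregnancy and the time since injection cannot be told apart.

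Interferons are secreted proteins that warn cells of infection. Type I and type III interferons act through receptors that activate the kinases Jak1 and Tyk2, and these phosphorylate transcription factors such as Stat2. The activated factors join Irf9 to form a complex, ISGF3, which binds the interferon-stimulated response element (ISRE) in the promoters of its targets. Type II interferon (Ifng) acts through the gamma-activated site (GAS). The liver is exposed to gut-derived microbial products, and hepatocytes, endothelial cells and resident macrophages (Kupffer cells) all respond to interferon. A low level of the targets is present without infection.

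Some promoters of the list carry the core of the ISRE, so promoter sequences are shown first. RefSeq promoters (250 bases before to 50 after the start, GRCm38.p6) were given for 32 of the 39 members. The core of the ISRE is GAAA followed, after 2 bases of any kind, by a further GAAA, which reads as TTTC repeated in the same way on the other strand. On either strand it was in the promoter of 17 of these 32 members (53.1%). Over all 27025 genes with a promoter, 3.99% had it. With the 250 bases before the start alone, the shares were 46.9% and 3.46%. The core of the GAS, TTCNNNGAA, which reads the same on both strands, was in 8 of the 32 and in 9.55% of all genes. A match describes the letters and does not show that a factor binds there, and members without a match may carry an element outside this window. Of the 14 members that passed a test below, 11 had a promoter and 7 of these held the ISRE core. The following stretches of 60 bases, on the strand of the gene, are those of the 6 whose match lies before the start, with the ISRE core in capitals.
Ifit1: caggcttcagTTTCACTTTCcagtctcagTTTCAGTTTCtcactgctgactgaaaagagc
Rsad2: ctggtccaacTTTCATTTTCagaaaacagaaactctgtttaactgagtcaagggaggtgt
Gbp2: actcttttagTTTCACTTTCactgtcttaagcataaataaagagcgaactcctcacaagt
Gbp3: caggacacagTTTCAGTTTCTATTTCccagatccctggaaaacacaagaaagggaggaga
Gbp7: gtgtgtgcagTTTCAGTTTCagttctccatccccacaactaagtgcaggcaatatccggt
Igtp: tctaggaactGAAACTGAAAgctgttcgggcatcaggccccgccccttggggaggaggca
The windows lie at chr19:34640775-34640834 (plus strand) for Ifit1, chr12:26456523-26456582 (minus strand) for Rsad2 and chr11:58199512-58199571 (plus strand) for Igtp. Those of the guanylate-binding proteins are at chr3:142620594-142620653 for Gbp2, chr3:142559989-142560048 for Gbp3 and chr3:142530273-142530332 for Gbp7, all on the plus strand. The first base of the first match was at position −104 from the start in Ifit1, −120 in Rsad2, −59 in Gbp2, −45 in Gbp3, −53 in Gbp7 and −34 in Igtp. Ifit1 and Gbp3 each held 2 matches, which overlap in Gbp3. Several members are neighbours on a chromosome. Clusters are formed by Ifit2, Ifit3, Ifit3b and Ifit1 on chromosome 19 and by Gbp7, Gbp3 and Gbp2 on chromosome 3. Others are Oas2, Oas3, Oas1g and Oas1a on chromosome 5, and Psmb9, Tap1 and Psmb8 on chromosome 17. Pairs are formed by Rsad2 and Cmpk2 on chromosome 12 and by Oasl2 and Oasl1 on chromosome 5. Dhx58 and Ifi35 lie farther apart, within chr11:100694884-101458698. Psmb9 and Tap1 point away from each other, and their starts in RefSeq are 226 bases apart.

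The libraries held 12280709 to 17615185 counts. The hepatocyte gene Alb took between 7.90% and 27.8% of them, and all 8 hepatocyte markers passed the filter, as the label of liver requires. Cdkn1a, the gene of p21, checks the virus labels. It was at 3.29 to 33.7 CPM (counts divided by the library size in units of 1e6, after TMM scaling in edgeR) in NP livers, 16.5 to 33.4 at 8 dpc and 59.8 to 127 at 16 dpc with AAV8-null. With AAV8-p21 it was at 347 to 648 CPM at 8 dpc and 815 to 1664 at 16 dpc, and no AAV8-p21 liver overlapped an AAV8-null liver. At 16 dpc, the AAV8-p21 columns carry numbers that differ from those of the labels, and their livers are called a, b and c here.

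Most members were expressed at a low level. Per kilobase of exon, the highest were Bst2, the surface protein tetherin that holds budding viruses on the cell, at 145 CPM per kilobase over all 15 livers, Ifi27 at 50.4 and Igtp, an immunity-related GTPase, at 25.4. At the other end, Oas3 was at 0.208 CPM per kilobase. Oas1g was the only member with a mean under 1 CPM, at 0.940. Ifit3 shares 36.7% of its 86-base stretches with Ifit3b, and Oas1a shares 44.4% with Oas1g. Reads that match more than 1 place were not counted, so these pairs are undercounted and their separate values are uncertain.

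In AAV8-null livers, GTPases, sensors, Usp18, Ifit1 and antigen-processing genes of the list fell between 8 and 16 dpc. Of the 39 members, 12 fell and 0 rose with an adjusted p under 0.05 in edgeR's quasi-likelihood test, where 3.71% of all genes tested fell and 3.16% rose. The log2 fold change was negative for 38 of the 39 and its median was −1.12, against 0.00488 for all genes, of which 49.6% were negative. All 3 livers at 16 dpc lay below all 3 livers at 8 dpc for 23 members (59.0%), which was so for 12.9% of all genes. The interferon-inducible GTPases had 4 of 5 members called and a median of −1.93. The immunoproteasome and peptide transport genes had 2 of 3, the IFIT and ISG15 genes 2 of 6, the sensors 2 of 5, the signalling factors 1 of 4, and viperin and the other effectors 1 of 10. The oligoadenylate synthetases had 0 of 6, with 6 of 6 negative and a median of −1.06. Unless another tool is named, called refers to edgeR throughout. The count depended on the livers used. It was 5 without liver 1 or liver 2 at 8 dpc, or without liver 2 or liver 3 at 16 dpc, and 21 without liver 3 at 8 dpc. The DESeq2 Wald test called 17, against 5.1% of all genes called lower by it, and limma voom 24, against 6.98%.

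**Figure D1:**
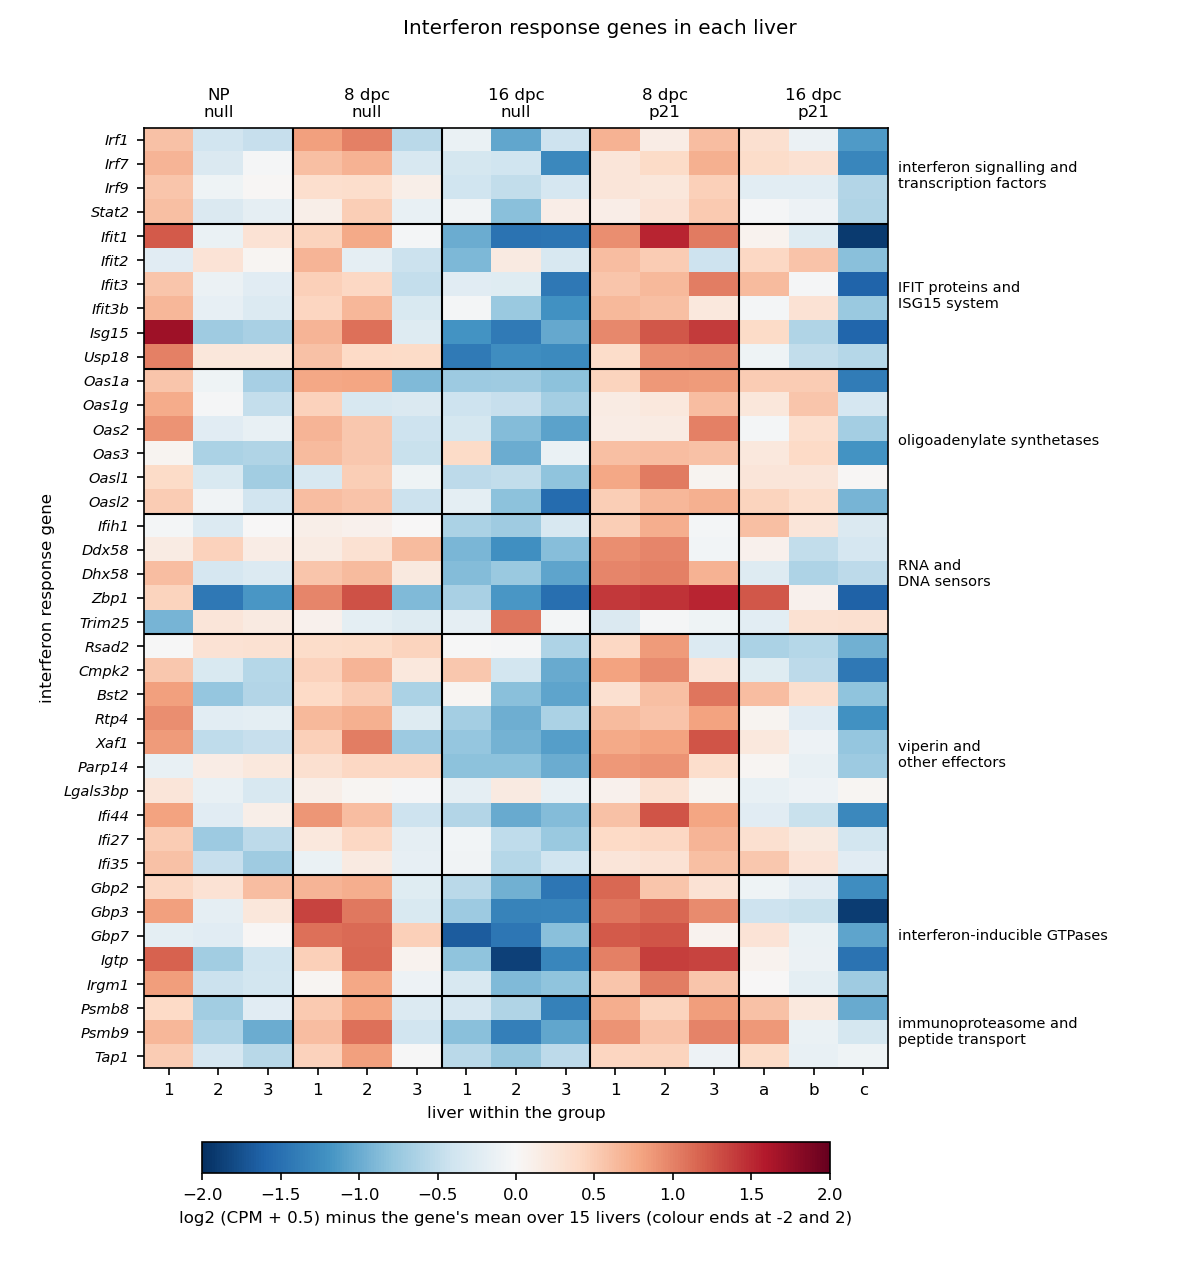
Level of the 39 members (rows, grouped by role) in each of the 15 livers (columns), as log2 (CPM + 0.5) minus the mean of the gene over the 15 livers, blue below and red above. AAV8-null livers at 16 dpc are below the mean for most rows, and liver c of the AAV8-p21 group at 16 dpc was the lowest of its group for 34 of the 39 members.

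The fall was also seen in AAV8-p21 livers. Between 8 and 16 dpc, 6 members fell and 0 rose in edgeR's quasi-likelihood test, where 1.23% of all genes tested fell and 2.09% rose. The log2 fold change was negative for 38 of 39, with a median of −0.75, against −0.02 for all genes, of which 51.9% were negative. For 21 members (53.8%) all 3 livers at 16 dpc lay below all 3 at 8 dpc, against 11.4% of all genes. The 6 were Usp18, Dhx58, Rsad2, Parp14, Ifi44 and Gbp3. The count was 1 without liver b or liver c at 16 dpc or without liver 2 at 8 dpc, 2 without liver 1 at 8 dpc and 3 without liver a at 16 dpc. DESeq2 called 13, against 2.26% of all genes called lower by it, and limma voom 17, against 6.69%.

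Against NP livers, AAV8-null livers at 16 dpc also had lower levels. Here 6 members fell and 0 rose in edgeR's quasi-likelihood test, where 2.82% of all genes tested fell and 3.71% rose. They were Ifit1, Usp18, Ddx58, Dhx58, Parp14 and Gbp2. The log2 fold change was negative for 36 of 39, with a median of −0.81 against −0.03 for all genes, and 18 members (46.2%) had all 3 livers below all 3 NP livers, against 12.5% of all genes. The count was 3 without NP liver 1 and 2 without liver 2 or liver 3 at 16 dpc. DESeq2 called 11 of the 39, against 3.87% of all genes called lower by it, and limma voom 6, against 5.74%. This comparison uses the same livers at 16 dpc as the one with 8 dpc, so the 2 are not independent.

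When counts were scaled by total counts alone, the median log2 fold change of all genes moved to −0.70 in both of these AAV8-null comparisons and to −0.59 in AAV8-p21 livers. Relative to that shift the members kept lower medians, at −1.84 for 16 against 8 dpc with AAV8-null, −1.34 with AAV8-p21 and −1.50 for 16 dpc against NP.

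**Figure D2:**
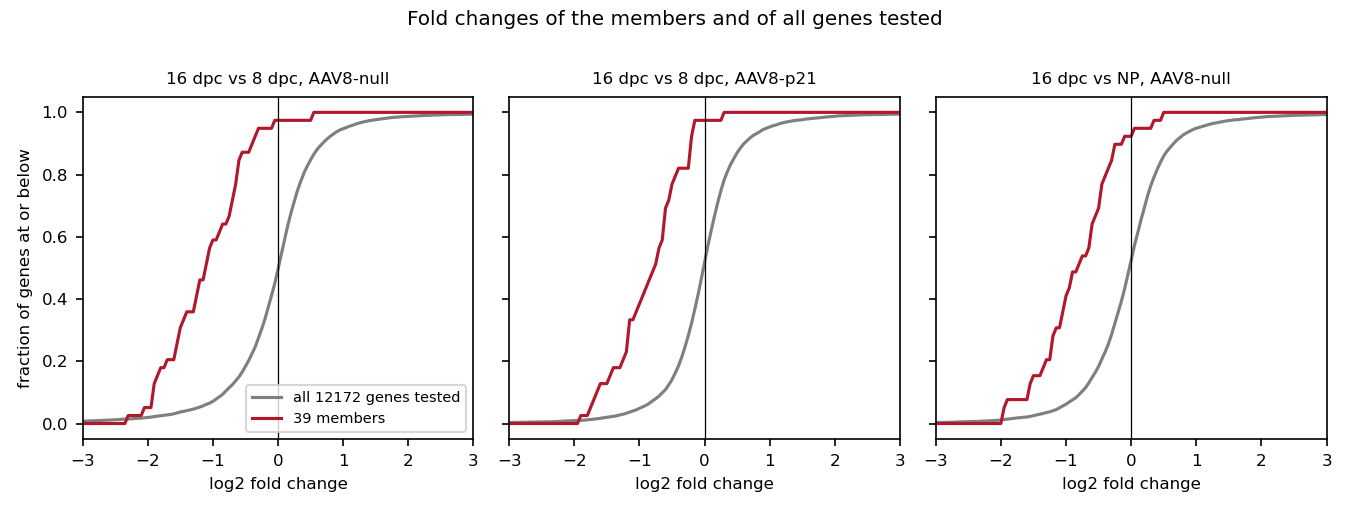
Cumulative fraction of genes (vertical axis) at or below each log2 fold change (horizontal axis), for the 39 members in red and all 12172 genes tested in grey, in 3 comparisons. The red lines lie to the left of the grey ones, with medians of −1.12, −0.75 and −0.81 for the members and near 0 for all genes.

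Irf9, the DNA-binding partner of Stat2 in ISGF3, lies at chr14:55603571-55610030 on the plus strand of GRCm38 (positions of genes are from GENCODE M21). It was at 39.1, 24.9 and 27.0 CPM in NP livers, at 33.5, 33.9 and 28.6 CPM at 8 dpc and 19.97, 18.7 and 20.7 CPM at 16 dpc with AAV8-null. AAV8-p21 livers held 31.3, 31.0 and 36.9 CPM at 8 dpc and 22.8, 22.8 and 17.4 CPM at 16 dpc. The AAV8-null livers at 16 dpc were below every NP and 8 dpc liver. Irf9 fell from 8 to 16 dpc in AAV8-null livers by 0.69 on the log2 scale (standard error 0.19, adjusted p = 0.041 in edgeR), a call kept in 1 of 6 fits with a liver left out. This was the smallest fall among the 12. With AAV8-p21 the change of Irf9 from 8 to 16 dpc was −0.66 (standard error 0.19) without overlap. It was not called in edgeR (adjusted p = 0.073) but was in DESeq2 (0.0349) and limma voom (0.0148). From NP to 16 dpc with AAV8-null, DESeq2 called Irf9 lower (adjusted p = 0.042) and limma voom did not. In edgeR, Irf1, Irf7 and Stat2 did not pass in any comparison, while limma voom called Irf1 and Irf7 lower at 16 than at 8 dpc with AAV8-null and Irf1 higher at 8 dpc than in NP livers. Irf7, the master factor of type I interferon production, was at 51.9, 55.1 and 26.9 CPM at 8 dpc and 26.5, 25.7 and 13.6 CPM at 16 dpc with AAV8-null, with liver 3 lowest at each stage.

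Among the IFIT and ISG15 genes, Usp18 had the smallest p-value of the list in both AAV8-null comparisons with 16 dpc. It encodes the protease that takes ISG15 off other proteins and also blocks the type I receptor, and it lies at chr6:121245906-121270917 on the plus strand. In AAV8-null livers Usp18 was at 19.4, 11.1 and 11.0 CPM in NP mice, 14.3, 12.6 and 12.3 CPM at 8 dpc and 3.21, 3.67 and 3.56 CPM at 16 dpc. For AAV8-p21 the values were 12.2, 18.4 and 18.5 CPM at 8 dpc and 8.77, 6.54 and 6.12 CPM at 16 dpc. The 3 AAV8-null livers at 16 dpc were thus the lowest of all 15, and the AAV8-p21 livers at 16 dpc were above them and below all the rest. Usp18 fell from 8 to 16 dpc with AAV8-null (log2 fold change −1.91, standard error 0.26, adjusted p = 0.000769 in edgeR) and with AAV8-p21 (−1.19, standard error 0.25, adjusted p = 0.0166 in edgeR). It also fell from NP to 16 dpc (−1.99, standard error 0.26, adjusted p = 0.000494 in edgeR). The AAV8-null calls held with each of the 6 livers left out in turn, and the AAV8-p21 call in 3 of 6 fits.

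Ifit1, which binds viral RNA that lacks the cap of the host, lies at chr19:34640871-34650009 on the plus strand. It was at 24.6, 9.20 and 12.5 CPM in NP livers, 14.1, 17.6 and 9.88 CPM at 8 dpc and 4.90, 3.33 and 3.38 CPM at 16 dpc with AAV8-null. The 8 dpc livers with AAV8-p21 had 19.8, 30.3 and 21.4 CPM and those of 16 dpc 10.7, 8.43 and 2.33 CPM, where liver c alone was under the AAV8-null livers. Ifit1 fell against 8 dpc (−1.84, standard error 0.47, adjusted p = 0.0336 in edgeR) and against NP (−1.99, standard error 0.48, adjusted p = 0.0222), calls that held in 2 and 3 of 6 fits with a liver left out. With AAV8-p21 its value from 8 to 16 dpc was −1.74 (standard error 0.46) with no overlap between the groups, which missed the threshold in edgeR (adjusted p = 0.0526) and passed it in DESeq2 (0.00608) and limma voom (0.00308). Isg15, the ubiquitin-like protein itself, did not pass the test in edgeR, though DESeq2 and limma voom called its fall from 8 to 16 dpc with AAV8-null. Its levels were 29.9, 5.24 and 5.45 CPM in NP livers, 14.4, 19.5 and 7.28 CPM at 8 dpc and 3.57, 2.999 and 4.09 CPM at 16 dpc, and all 3 livers at 16 dpc were below the rest of AAV8-null. NP liver 1 was more than 5 times the other NP livers, and the adjusted p was 0.0867 against 8 dpc and 0.1 against NP (edgeR's quasi-likelihood test).

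The remaining IFIT genes, Ifit2, Ifit3 and Ifit3b, overlapped between all stages and were not called in edgeR, and limma voom called Ifit3b from 8 to 16 dpc with AAV8-null. From 8 to 16 dpc with AAV8-null they had log2 fold changes of −0.45, −0.77 and −1.12.

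Oligoadenylate synthetases with enzyme activity make the messenger that activates RNase L. The 6 genes grouped under this role include the synthetase-like Oasl1 and Oasl2. In edgeR none of the 6 was called, and limma voom called Oas2 and Oasl2 lower from 8 to 16 dpc with AAV8-null and Oas3 higher from NP to 8 dpc. DESeq2 called none. Oasl1 was the highest by counts, at 7.33, 13.2 and 8.74 CPM at 8 dpc and 6.33, 6.42 and 5.07 CPM at 16 dpc with AAV8-null, without overlap. With AAV8-p21 at 16 dpc Oasl1 stood at 11.1, 11.1 and 9.47 CPM, above all the AAV8-null livers of that stage. Between 8 and 16 dpc with AAV8-null, Oas1a, Oas2 and Oasl2 had log2 fold changes of −1.52, −1.30 and −1.23 with overlapping groups and liver 3 the lowest at 8 dpc. Oas1g did not overlap (−0.89), at 1.40, 0.595 and 0.624 CPM against 0.535, 0.4999 and 0.356 CPM.

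Of the 5 sensors of foreign nucleic acid on the list, 2 fell at 16 dpc. Ddx58, the gene of RIG-I (chr4:40203773-40239828, minus strand), was at 19.9, 24.5 and 19.6 CPM in NP livers, 19.9, 21.9 and 27.7 CPM at 8 dpc and 9.09, 7.25 and 9.61 CPM at 16 dpc with AAV8-null. Among AAV8-p21 mice, values of 34.3, 35.4 and 17.0 CPM (8 dpc) and 18.8, 12.4 and 13.8 CPM (16 dpc) were measured. The AAV8-null livers at 16 dpc were the lowest 3 of the 15, and the AAV8-p21 groups overlapped. Ddx58 fell in AAV8-null livers from 8 to 16 dpc (−1.42, standard error 0.27, adjusted p = 0.00682 in edgeR) and from NP (−1.30, standard error 0.27, adjusted p = 0.0103), in 6 and 5 of 6 fits with a liver left out.

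Dhx58, which encodes the related helicase LGP2 (chr11:100694884-100704271, minus strand), was at 12.2, 6.03 and 6.29 CPM in NP livers, 11.6, 12.3 and 8.95 CPM at 8 dpc and 4.01, 4.42 and 3.47 CPM at 16 dpc with AAV8-null. AAV8-p21 livers held 15.6, 16.04 and 12.9 CPM at 8 dpc and 6.39, 4.87 and 5.24 CPM at 16 dpc. The 2 stages of pregnancy did not overlap with either virus. The log2 fold change from 8 to 16 dpc was −1.46 with AAV8-null (standard error 0.27, adjusted p = 0.00558 in edgeR) and −1.44 with AAV8-p21 (standard error 0.26, adjusted p = 0.00728), and both calls held in 6 of 6 fits with a liver left out. Dhx58 also fell from NP to 16 dpc (−1.04, standard error 0.27, adjusted p = 0.032 in edgeR), a call kept in 2 of 6 fits and not made by limma voom.

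The other sensors did not pass the test in edgeR. DESeq2 and limma voom called Zbp1 lower from 8 to 16 dpc with AAV8-null. Zbp1, which binds nucleic acids in the Z form, ranged from 2.84 to 29.1 CPM over the 15 livers. Its 3 AAV8-p21 livers at 8 dpc, at 26.8, 27.4 and 29.1 CPM, were above all others. Trim25, a ubiquitin ligase that activates RIG-I, was the exception of the list. It had a log2 fold change of 0.51 from 8 to 16 dpc with AAV8-null (standard error 0.34, adjusted p = 0.398 in edgeR), which liver 2 of 16 dpc set, at 190 CPM against 79.2 and 87.2. Without a liver it ranged from −0.00238 to 0.73, and with total counts alone it was negative like the rest of the list. In that scaling the median of all genes was −0.70 as well.

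**Figure D3:**
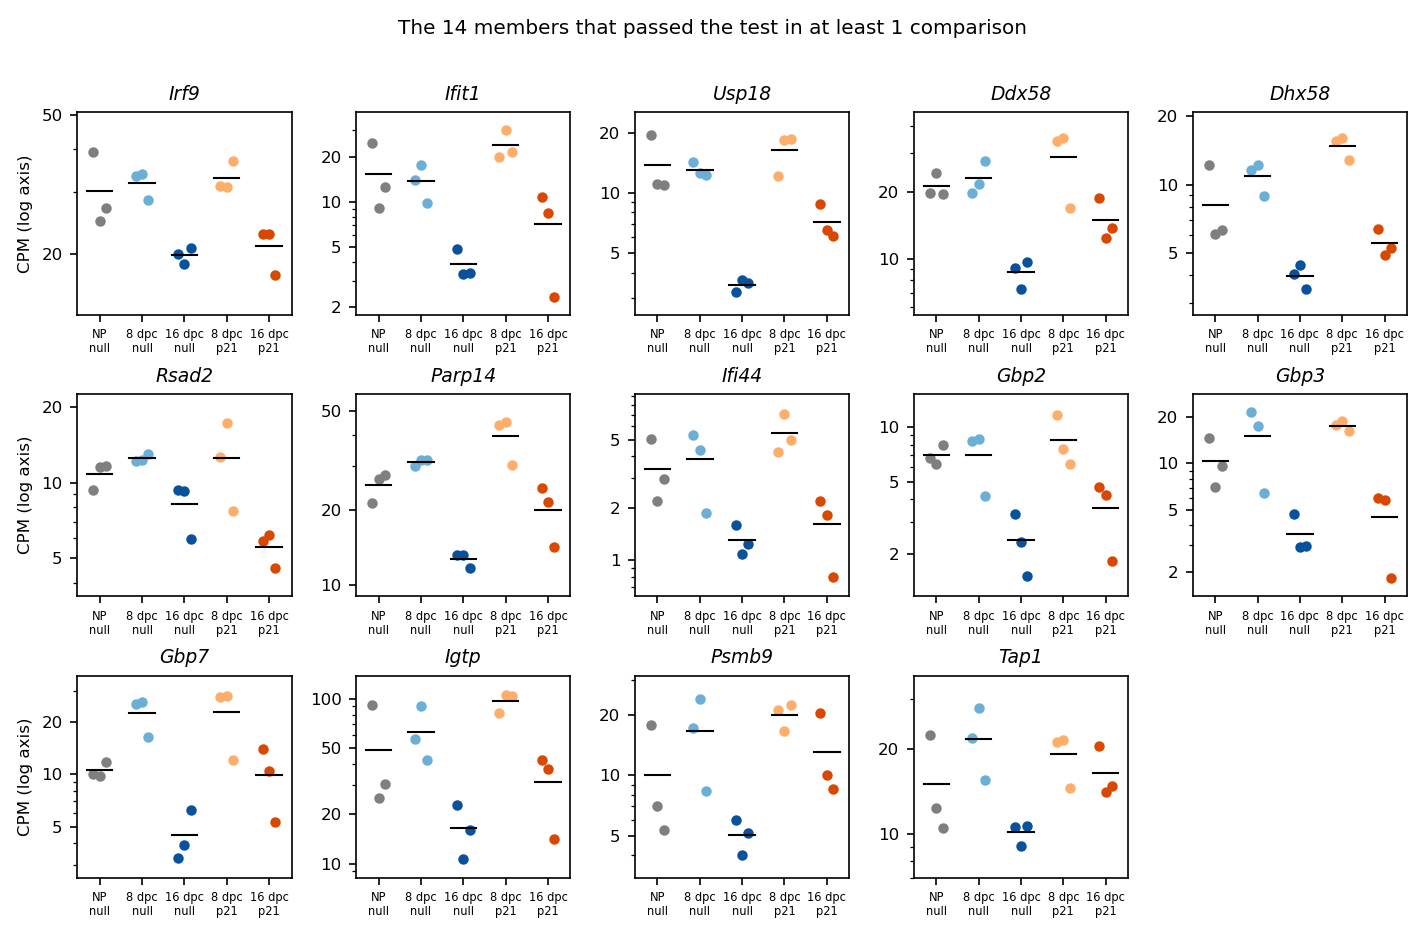
CPM (log axis) of the 14 members called in at least 1 comparison, in each liver (points) of the 5 groups, with the mean of each group as a bar. The AAV8-null livers at 16 dpc are below the AAV8-null livers at 8 dpc in all 14 panels, and the 3 AAV8-null livers at 16 dpc are the lowest of the 15 livers for Usp18, Ddx58, Dhx58 and Parp14.

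Of the 10 effectors, edgeR called Parp14, Rsad2 and Ifi44 in at least 1 comparison. DESeq2 and limma voom also called Rtp4 and Xaf1 lower from 8 to 16 dpc with AAV8-null and Cmpk2 with AAV8-p21. Parp14, an ADP-ribosyltransferase (chr16:35832874-35871544, minus strand), was at 21.4, 26.6 and 27.8 CPM in NP livers, 30.1, 31.9 and 31.8 CPM at 8 dpc and 13.3, 13.2 and 11.7 CPM at 16 dpc with AAV8-null. For AAV8-p21 the values were 44.0, 45.0 and 30.5 CPM at 8 dpc and 24.6, 21.5 and 14.2 CPM at 16 dpc. No liver at 16 dpc overlapped the 8 dpc livers with the same virus. Parp14 fell from 8 to 16 dpc with AAV8-null (−1.29, standard error 0.21, adjusted p = 0.00274 in edgeR) and AAV8-p21 (−0.99, standard error 0.21, adjusted p = 0.0181), and from NP to 16 dpc (−0.98, standard error 0.21, adjusted p = 0.0127). With a liver left out these calls held in 6, 2 and 3 of 6 fits.

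Rsad2 encodes viperin, an enzyme that makes a chain terminator of viral RNA synthesis (chr12:26442746-26456452, minus strand). It was at 9.35, 11.6 and 11.7 CPM in NP livers, 12.2, 12.3 and 13.0 CPM at 8 dpc and 9.36, 9.25 and 5.96 CPM at 16 dpc with AAV8-null. The 8 dpc livers with AAV8-p21 had 12.6, 17.3 and 7.70 CPM and those of 16 dpc 5.88, 6.18 and 4.59 CPM. It fell from 8 to 16 dpc in AAV8-p21 livers (−1.18, standard error 0.27, adjusted p = 0.0266 in edgeR), a call that held in 1 of 6 fits with a liver left out. Its AAV8-null change of −0.61 did not pass (standard error 0.26, adjusted p = 0.183 in edgeR).

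Ifi44 (chr3:151730922-151749960, minus strand) was at 5.06, 2.19 and 2.94 CPM in NP livers, 5.35, 4.35 and 1.87 CPM at 8 dpc and 1.60, 1.08 and 1.25 CPM at 16 dpc with AAV8-null. Among AAV8-p21 mice, values of 4.24, 7.08 and 4.97 CPM (8 dpc) and 2.21, 1.82 and 0.801 CPM (16 dpc) were measured. The stages did not overlap with either virus. It fell with AAV8-p21 (−1.76, standard error 0.45, adjusted p = 0.0456 in edgeR), but lost the call whichever of the 6 livers was left out. Rtp4 and Xaf1 had all 3 livers at 16 dpc below those at 8 dpc with each virus, and did not pass the test in edgeR. Their log2 fold changes were −1.25 and −1.58 with AAV8-null (adjusted p = 0.0628 and 0.0762 in edgeR) and −1.09 and −1.24 with AAV8-p21. Bst2 and Ifi27, the members of highest level, had −0.71 and −0.58 with AAV8-null. Lgals3bp, a secreted glycoprotein that binds galectins, stayed between 52.7 and 81.9 CPM in all 15 livers, with log2 fold changes of −0.08 and −0.23 from 8 to 16 dpc with AAV8-null and AAV8-p21.

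The interferon-inducible GTPases, proteins that coat and break the vacuoles of intracellular pathogens, had the lowest median of the roles. Gbp7 (chr3:142530342-142550149, plus strand) was at 10.04, 9.75 and 11.7 CPM in NP livers, 25.3, 26.0 and 16.2 CPM at 8 dpc and 3.30, 3.92 and 6.23 CPM at 16 dpc with AAV8-null. AAV8-p21 livers held 27.7, 28.2 and 12.1 CPM at 8 dpc and 13.97, 10.5 and 5.32 CPM at 16 dpc. The 3 AAV8-null groups were separate, with 8 dpc highest and 16 dpc lowest. From 8 to 16 dpc it fell by 2.33 on the log2 scale (standard error 0.39, adjusted p = 0.00307 in edgeR), the largest of the 39 members, and it was called in 6 of 6 fits with a liver left out. Gbp7 shares 10.7% of its 86-base stretches with Gbp3 and Gm43802.

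Gbp3 (chr3:142560026-142573209, plus strand) was at 14.7, 7.07 and 9.58 CPM in NP livers, 21.5, 17.4 and 6.45 CPM at 8 dpc and 4.72, 2.92 and 2.94 CPM at 16 dpc with AAV8-null. For AAV8-p21 the values were 17.6, 18.7 and 16.1 CPM at 8 dpc and 5.96, 5.82 and 1.82 CPM at 16 dpc. It fell between these stages with AAV8-null (−2.10, standard error 0.47, adjusted p = 0.0175 in edgeR) and AAV8-p21 (−1.95, standard error 0.46, adjusted p = 0.031), calls that held in 2 and 1 of 6 fits with a liver left out. Gbp2 (chr3:142620602-142638008, plus strand) was at 6.79, 6.21 and 7.97 CPM in NP livers, 8.32, 8.57 and 4.16 CPM at 8 dpc and 3.30, 2.33 and 1.51 CPM at 16 dpc with AAV8-null. The 8 dpc livers with AAV8-p21 had 11.7, 7.59 and 6.23 CPM and those of 16 dpc 4.68, 4.22 and 1.82 CPM. Gbp2 fell against 8 dpc and against NP with AAV8-null, by 1.55 on the log2 scale each time (standard error 0.40, adjusted p = 0.0324 and 0.032 in edgeR), and these calls held in 2 and 1 of 6 fits. For Gbp2 and Gbp3, liver 3 was the lowest of the AAV8-null livers at 8 dpc and still above all 3 at 16 dpc.

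Igtp (chr11:58199556-58207591, plus strand) was at 91.8, 24.9 and 30.5 CPM in NP livers, 56.6, 89.7 and 42.4 CPM at 8 dpc and 22.8, 10.7 and 16.02 CPM at 16 dpc with AAV8-null. Among AAV8-p21 mice, values of 82.1, 106 and 104 CPM (8 dpc) and 42.2, 37.2 and 14.1 CPM (16 dpc) were measured. Its stages did not overlap with either virus, and it fell with AAV8-null (−1.93, standard error 0.50, adjusted p = 0.0348 in edgeR), in 2 of 6 fits with a liver left out. The AAV8-p21 change was −1.64 with an adjusted p of 0.091 in edgeR. Igtp shares exon sequence on the same strand with Irgm2, so part of its reads may belong to that gene. Irgm1 was not called in edgeR but was in limma voom, with log2 fold changes of −0.94 and −1.01 from 8 to 16 dpc with AAV8-null and AAV8-p21.

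The immunoproteasome replaces catalytic subunits of the proteasome and makes peptides for MHC class I, and the Tap transporter carries these into the endoplasmic reticulum. Psmb9 (chr17:34181987-34187764, minus strand) was at 17.9, 7.07 and 5.31 CPM in NP livers, 17.3, 24.2 and 8.37 CPM at 8 dpc and 5.97, 3.999 and 5.16 CPM at 16 dpc with AAV8-null. AAV8-p21 livers held 21.2, 16.7 and 22.5 CPM at 8 dpc and 20.5, 10.1 and 8.59 CPM at 16 dpc. Psmb9 fell from 8 to 16 dpc with AAV8-null (−1.72, standard error 0.48, adjusted p = 0.0437 in edgeR, kept in 1 of 6 fits), and the 2 AAV8-p21 groups overlapped.

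Tap1 (chr17:34187553-34197225, plus strand) was at 22.4, 12.3 and 10.5 CPM in NP livers, 21.8, 27.8 and 15.4 CPM at 8 dpc and 10.6, 9.08 and 10.7 CPM at 16 dpc with AAV8-null. For AAV8-p21 the values were 21.2, 21.5 and 14.6 CPM at 8 dpc and 20.4, 14.1 and 14.7 CPM at 16 dpc. It fell with AAV8-null from 8 to 16 dpc (−1.10, standard error 0.29, adjusted p = 0.038 in edgeR, kept in 1 of 6 fits), and its AAV8-p21 change was −0.22. Psmb9 and Tap1 overlap by 212 bases of exon on opposite strands. Whether the counting used the strand is not stated in the sources used here, so these shared bases are uncertain. Psmb8 had a log2 fold change of −1.14 with AAV8-null and was called by limma voom alone.

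**Figure D4:**
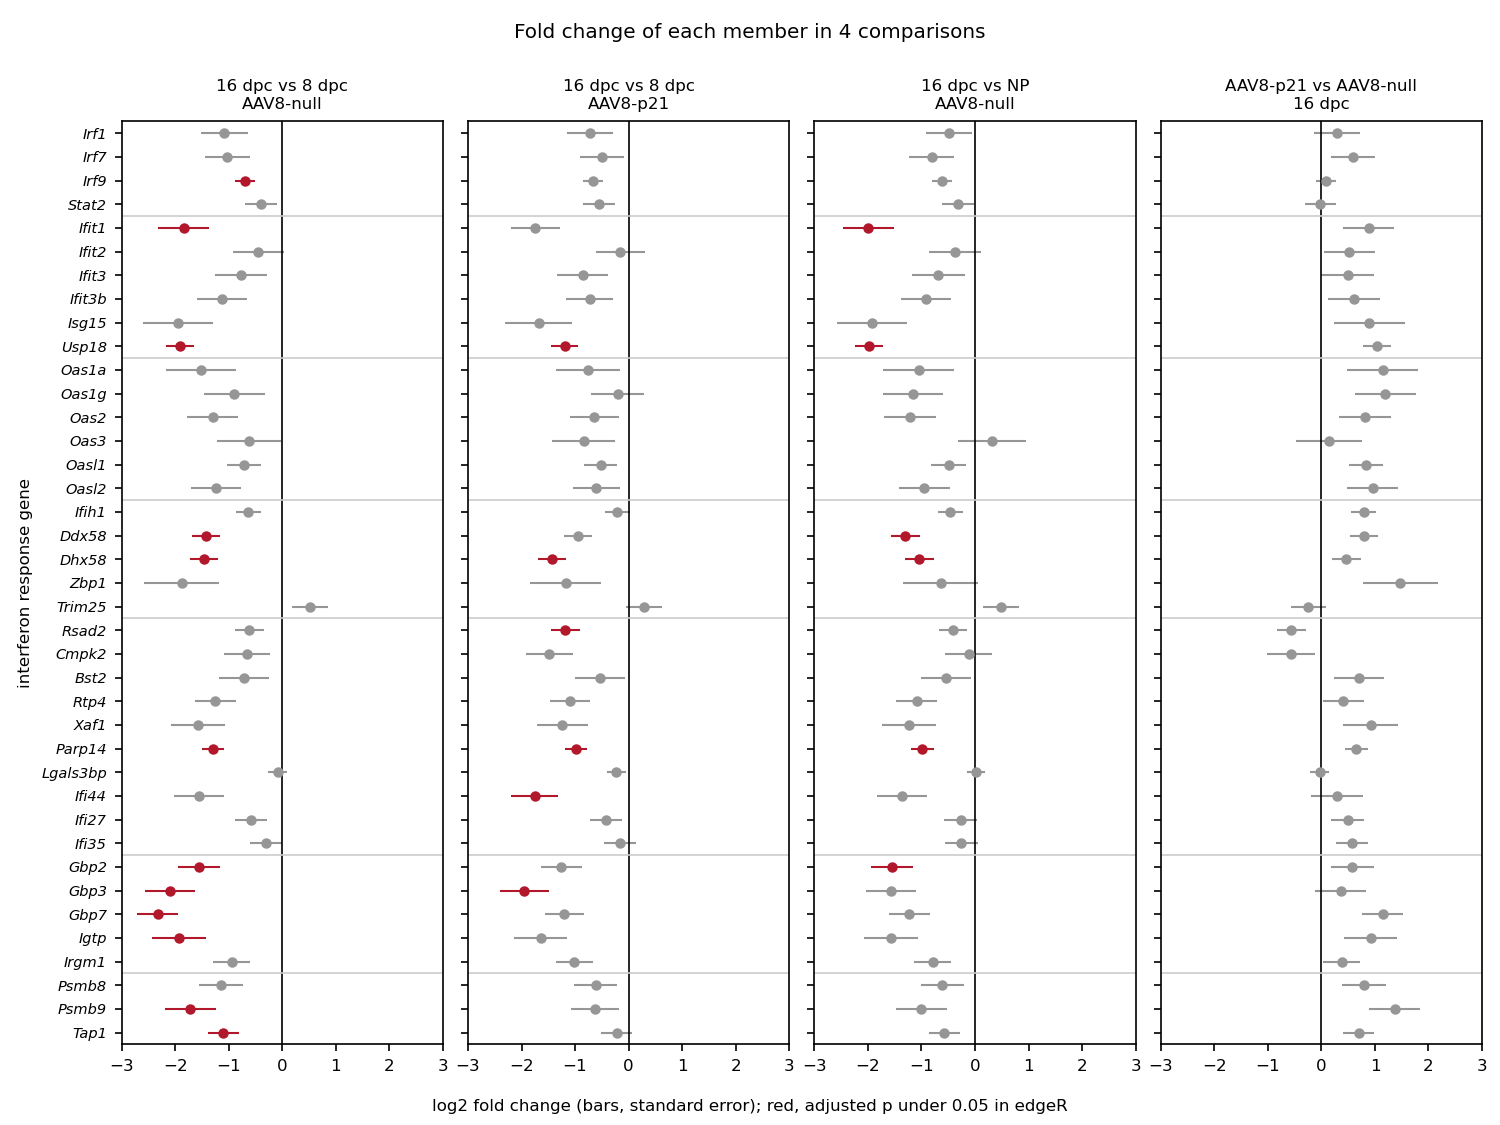
Log2 fold change (horizontal axis, bars are standard errors) of each of the 39 members in 4 comparisons, with red for an adjusted p under 0.05 in edgeR. In the 3 comparisons of stages 12, 6 and 6 members are red, all below 0, and between the viruses at 16 dpc 0 are red and 34 of 39 are above 0.

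Between NP livers and 8 dpc, edgeR called no member. In AAV8-null mice, 0 of 39 members were called by edgeR's quasi-likelihood test, as were 0.0% of all genes, and 1 reached an unadjusted p under 0.05 with a higher level, against 3.23% of all genes. That count was 13 without NP liver 1 and 6 without liver 3 at 8 dpc. DESeq2 called 0 and limma voom with sample weights 16, all higher at 8 dpc, where limma voom called 7.83% of all genes higher. Values above 0 were found for 35 of 39 members (49.0% of all genes), with a median of 0.20. The median was 0.61 without NP liver 1, with 36 of 39 above 0, and 0.09 without liver 2 at 8 dpc, with 24 of 39. For 4 members (10.3%), Ifih1, Rsad2, Parp14 and Gbp7, all 3 livers at 8 dpc were above all 3 NP livers, against 4.69% of all genes. The 1 with an unadjusted p under 0.05 was Gbp7 (log2 fold change 1.10, standard error 0.36, adjusted p = 0.438 in edgeR). Of the marker lists, with 0 genes called, 8 of 8 endothelial markers (median −0.83) and 8 of 8 stellate cell markers (−0.51) were lower at 8 dpc, and 4 of 4 neutrophil and monocyte markers were higher (2.91). Their part in the values of the members was not tested.

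AAV8-p21 livers had higher values of most members than AAV8-null livers of the same stage, but no member passed the test. At 16 dpc, 0 of 39 were called in edgeR's quasi-likelihood test, where 0.0739% of all genes were called, and DESeq2 and limma voom also called 0. Unadjusted p-values under 0.05 were reached by 8 members in edgeR, 10 in DESeq2 and 19 in limma voom. The 8 in edgeR became 4 without liver a of AAV8-p21 and 21 without liver c. All 8 were higher with AAV8-p21, which was so for 5.05% of all genes. Of the 39 values 34 were above 0, against 6081 of the 12172 genes, and the median was 0.61. It was 0.39 without liver a and 0.90 without liver c of AAV8-p21. In 9 members (23.1%, against 6.65% of all genes) all 3 AAV8-p21 livers were above all 3 AAV8-null livers. They were Usp18, Oas1g, Oasl1, Ifih1, Ddx58, Dhx58, Parp14, Psmb9 and Tap1. Usp18 had the smallest p, with a log2 fold change of 1.03 (standard error 0.26, adjusted p = 0.159 in edgeR) that stayed between 0.86 and 1.13 without any of the 6 livers. Psmb9 was at 1.37 (standard error 0.48, adjusted p = 0.344). Rsad2 and its neighbour Cmpk2, a mitochondrial nucleotide kinase, went the other way, at −0.56 and −0.57, with overlapping groups. Marker lists differed between the viruses at 16 dpc as well, with 0 genes called. The median log2 fold change was 0.54 for MHC class II genes (8 of 8 higher with AAV8-p21) and 0.22 for MHC class I genes (15 of 15). For T and NK cell markers it was 0.76 (5 of 8), for bile duct markers 0.69 (4 of 5) and for stellate cell markers 0.39 (7 of 8). Macrophage markers had 0.11 (10 of 12) and hepatocyte markers 0.17 (5 of 8). Below 0 were endothelial (−0.17, 2 of 8), B cell (−0.11, 2 of 4) and neutrophil and monocyte markers (−2.23, 0 of 4). The part of these cells in the difference was not tested.

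At 8 dpc, 0 of 39 members were called between the viruses in edgeR, where 0.0246% of all genes were called, and 0 reached an unadjusted p under 0.05, against 2.5% of all genes that did so with a higher level. DESeq2 and limma voom called 0, with 0 and 6 members at an unadjusted p under 0.05. Positive values were found for 36 of 39 (49.6% of all genes), with a median of 0.32. This rested on liver 3 of AAV8-null, without which 26 of 39 were above 0 and the median was 0.07. In all, 5 members (12.8%, against 5.52% of all genes) had all 3 AAV8-p21 livers on top, namely Ifit1, Ifit3, Dhx58, Zbp1 and Ifi35. Among marker lists at 8 dpc, with 0 genes called, 8 of 8 stellate cell markers (median 0.89), 7 of 8 endothelial markers (0.35), 4 of 5 bile duct markers (0.75) and 10 of 12 macrophage markers (0.17) were higher with AAV8-p21, and 4 of 4 neutrophil and monocyte markers were lower (−1.68). The interaction of virus and stage, which asks whether the fall from 8 to 16 dpc differed between the viruses, had 0 of 39 calls and 0.0% of all genes in edgeR, and 0 in DESeq2 and limma voom. In edgeR, 2 members reached an unadjusted p under 0.05 with a positive value (1.74% of all genes did), with 2 in DESeq2 and 8 in limma voom. They were Gbp7, at 1.13 (standard error 0.52), and Tap1, at 0.88 (standard error 0.41), both with an adjusted p of 1.0 in edgeR. The median of the interaction was 0.29, and 0.01 to 0.53 with a liver left out.

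In 3 of the 5 groups, the members varied together between livers. The median range of a member within a group, on the log2 scale, was 1.04 in NP livers, 0.956 at 8 dpc and 0.609 at 16 dpc with AAV8-null, and 0.459 at 8 dpc and 1.06 at 16 dpc with AAV8-p21. For all genes tested it was between 0.483 and 0.561. The 3 groups with the wide ranges each had 1 liver that stood apart. NP liver 1 was the highest of its group for 31 of 39 members, against 43.2% of all genes. Liver 3 at 8 dpc with AAV8-null was the lowest for 34, against 40.1% of all genes, and liver c at 16 dpc with AAV8-p21 the lowest for 34, against 40.3%. The mean log2 CPM of the 39 members was 4.16, 3.37 and 3.38 in NP livers, 4.12, 4.22 and 3.45 at 8 dpc and 3.14, 2.87 and 2.77 at 16 dpc with AAV8-null. On the same log2 scale AAV8-p21 livers were at 4.24, 4.35 and 4.22 at 8 dpc and 3.81, 3.60 and 2.78 at 16 dpc. Liver c was thus at the level of the AAV8-null livers at 16 dpc, and livers a and b above them.

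**Figure D5:**
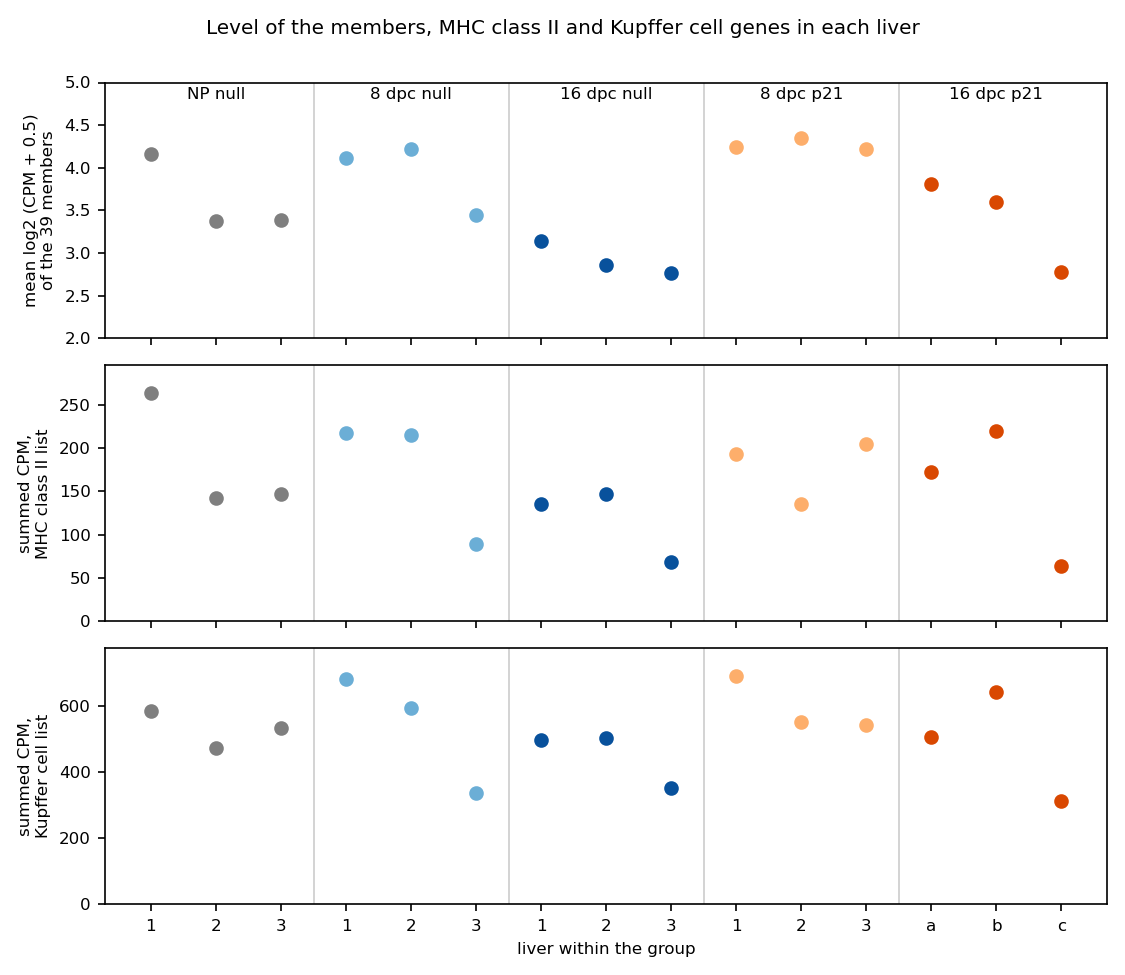
Mean log2 (CPM + 0.5) of the 39 members (top) and summed CPM of the 8 MHC class II genes (middle) and the 12 Kupffer cell and macrophage markers (bottom) in each liver. Liver 3 at 8 dpc with AAV8-null and liver c at 16 dpc with AAV8-p21 are the lowest of their groups in all 3 panels.

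Within their groups, macrophage, MHC class II and T and NK cell markers were lowest in liver 3 at 8 dpc with AAV8-null and in liver c, but neutrophil and B cell markers were highest in that liver 3, and neutrophil markers were not lowest in liver c. The 12 markers of Kupffer cells and macrophages summed to 473 to 586 CPM in NP livers, 335 to 681 at 8 dpc and 350 to 502 at 16 dpc with AAV8-null. With AAV8-p21 they summed to 541 to 692 at 8 dpc and 312 to 642 at 16 dpc. The lowest sums at 8 dpc with AAV8-null and at 16 dpc with AAV8-p21 were those of liver 3 and liver c. The 8 MHC class II genes, which macrophages, dendritic cells and B cells use, summed to 217, 215 and 88.6 CPM at 8 dpc with AAV8-null and to 172, 220 and 64.2 CPM at 16 dpc with AAV8-p21, with the same livers lowest. In NP livers they summed to 264, 143 and 147 CPM, with liver 1 highest. At 16 dpc with AAV8-null they summed to 135, 147 and 68.4 CPM. There the means of the members were close, at 3.14, 2.87 and 2.77, and were also lowest in liver 3. At 8 dpc with AAV8-p21 the MHC class II genes summed to 193, 135 and 204 CPM, lowest in liver 2, which had the highest mean of the members. None of the 12 macrophage markers was at 0 in all libraries, and edgeR called 0 of 12 in the comparisons of stages. From 8 to 16 dpc, 9 of 12 were lower with AAV8-null (median −0.24) and 11 of 12 with AAV8-p21 (median −0.31). From NP to 16 dpc 10 of 12 were lower (median −0.18), and from NP to 8 dpc 9 of 12 were higher (median 0.05). Of 8 hepatocyte markers, Alb, Asgr1 and Apoa1 rose from 8 to 16 dpc with each virus and from NP to 16 dpc, and Ttr fell from NP to 16 dpc (−1.41, adjusted p = 0.0214 in edgeR, kept in 3 of 6 fits). Their median log2 fold change was 0.57 from 8 to 16 dpc with AAV8-null (5 of 8 higher), 0.82 with AAV8-p21 (7 of 8 higher), 0.40 from NP to 16 dpc (5 of 8 higher) and −0.26 from NP to 8 dpc (7 of 8 lower). From 8 to 16 dpc with AAV8-null, 8 of 8 endothelial markers (median 0.78) and 7 of 8 stellate cell markers (0.25) were higher. The endothelial Pecam1 and Clec4g and the stellate Dcn were called (1.16, 0.80 and 1.04, adjusted p = 0.0318, 0.0206 and 0.0144 in edgeR). These calls held in 2, 4 and 4 of 6 fits with a liver left out. With AAV8-p21, 6 of 8 endothelial (median 0.34) and 3 of 8 stellate cell markers (−0.04) were higher. Lrat, a further stellate cell marker, fell from NP to 16 dpc (−1.41, adjusted p = 0.0279, kept in 1 of 6 fits). The part of any of these cells in the levels of the members was not tested. In bulk RNA, fewer cells of a type and less RNA per cell cannot be told apart. Summed markers of T and NK cells were at 3.29 to 9.86 CPM, of B cells at 2.94 to 10.8 CPM and of plasmacytoid dendritic cells, which make much type I interferon, at 0.218 to 1.54 CPM, over the 15 livers. Of 8 T and NK cell markers edgeR called 0, but 7 were lower from 8 to 16 dpc with AAV8-null (median −0.88) and 7 from NP to 16 dpc (median −1.15), and 6 from 8 to 16 dpc with AAV8-p21 (median −0.39). The MHC class II genes had 7 of 8 lower from NP to 16 dpc (median −0.88). Neutrophil markers summed to 1.83 to 2.84 CPM in NP livers and to 7.00 to 32.7 CPM at 16 dpc with AAV8-null, and S100a8, S100a9 and Retnlg rose between these groups (log2 fold changes 3.99, 3.77 and 3.80, adjusted p = 0.00184, 0.00931 and 0.0374 in edgeR, kept in 6, 6 and 2 of 6 fits).

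The rest of the pathway was compared from lists written by hand. The 10 interferon genes on the list had at most 2 counts in any library, and 8 of them had 0 in all 15 and were not detectable at this depth. The other 2, Ifnk and Ifng, were too low to compare. Of 5 receptor genes tested, 0 were called in each of the comparisons of stages, with medians of −0.05 and 0.02 from 8 to 16 dpc with AAV8-null and AAV8-p21. Ifnar1, a chain of the type I receptor, stayed between 24.6 and 42.3 CPM in all livers. Stat3, which transmits interleukin-6 signals, rose from 69.2, 63.5 and 74.8 CPM in NP livers to 129, 259 and 208 CPM at 16 dpc (log2 fold change 1.52, standard error 0.23, adjusted p = 0.00142 in edgeR). Socs3, its inhibitor, rose from 4.85, 3.96 and 3.22 CPM to 8.11, 23.2 and 50.5 CPM (2.76, standard error 0.62, adjusted p = 0.0165), as 1 of 7 inhibitors tested, in 3 of 6 fits with a liver left out. Of 13 further sensors and adaptors, 0 were called from 8 to 16 dpc with either virus.

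A further 50 interferon-stimulated genes outside the list were tested. From 8 to 16 dpc with AAV8-null, 11 fell and 1 rose, 46 of the 50 log2 fold changes were negative and the median was −0.78, where 3.71% of all genes fell, 3.16% rose and the median over all was 0.0049. With AAV8-p21, 6 fell and 0 rose, with 46 of 50 negative and a median of −0.66 (1.23% and 2.09% of all genes, median −0.02). From NP to 16 dpc with AAV8-null, 4 fell and 1 rose, with 44 of 50 negative and a median of −0.65 (2.82% and 3.71% of all genes, median −0.03). Between the viruses 0 were called, and 44 of 50 were higher with AAV8-p21 at 8 dpc (median 0.24) and 40 of 50 at 16 dpc (median 0.34). Samd9l, an antiviral factor, fell in all 3 comparisons, with values of −1.38, −1.24 and −1.33 on the log2 scale (adjusted p = 0.00128, 0.00343 and 0.00144 in edgeR). Trim21, the antibody receptor of the cytosol, fell from 8 to 16 dpc with AAV8-null (−1.02, adjusted p = 0.0169) and AAV8-p21 (−1.43, adjusted p = 0.00275). Tgtp1, a GTPase of the family of Igtp, had 1, 0 and 1 counts in the AAV8-null livers at 16 dpc and 36, 39 and 24 counts at 8 dpc, and fell against 8 dpc (adjusted p = 0.00379 in edgeR) and NP (adjusted p = 0.0105). Apol9b fell in AAV8-null livers against 8 dpc (−2.85, adjusted p = 0.0173) and NP (−2.60, adjusted p = 0.0241). With AAV8-p21 the calls with the next smallest p-values were Irgm2 (−1.22, adjusted p = 0.0181), Helz2 (−0.70, adjusted p = 0.0305) and Ifi47 (−1.998, adjusted p = 0.0335), and from NP to 16 dpc Ifi203 fell (−0.85, adjusted p = 0.0476, all in edgeR). With a liver left out, Samd9l and Tgtp1 kept their calls in 6 of 6 fits, Trim21 in 2 with AAV8-null and 6 with AAV8-p21, Apol9b in 2 of 6 in each comparison, Irgm2 and Ifi47 in 2, Helz2 in 1 and Ifi203 in 0.

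Tor3a was the only one of the 50 further interferon-stimulated genes that was called higher. From 8 to 16 dpc with AAV8-null, 4 of the 50, Tor3a among them, had values above 0, and from NP to 16 dpc 6 did. Its levels with AAV8-null were 9.43, 11.3 and 13.7 CPM at 8 dpc and 38.6, 69.7 and 27.6 CPM at 16 dpc, and it rose against 8 dpc (1.98, adjusted p = 0.0098) and NP (2.20, adjusted p = 0.00464 in edgeR). The AAV8-p21 livers at 16 dpc, at 11.2, 13.6 and 17.0 CPM, were below all 3 AAV8-null livers. Of 15 MHC class I genes, 1 was called, H2-Q4, which fell from NP to 16 dpc (−0.78, adjusted p = 0.0168 in edgeR, kept in 3 of 6 fits), and of 8 MHC class II genes 0 were called, with 8 of 8 negative from 8 to 16 dpc with AAV8-null (median −0.80) and with AAV8-p21 (median −0.21).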

How the data were processed

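RNA-seq of 15 mouse livers (3 per group) was analysed. The authors selected RNA with a RIN above 7 and made TruSeq Stranded mRNA libraries. Per the labels and the methods, reads were trimmed with cutadapt 1.14, aligned to mm10 with HISAT2 2.1.0 and counted per gene with HTSeq 0.12.4 on GENCODE M25, and the deposited values are raw counts of uniquely mapped reads for 21702 genes. Strand use in counting is not stated.

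Counts were tested with edgeR 4.0.16 (quasi-likelihood test, TMM, filterByExpr with minimum count 10, 1 model of 5 group means, 10 residual degrees of freedom) in R 4.3.3, with Benjamini-Hochberg adjustment over all 12172 genes tested; called means an adjusted p under 0.05. TMM keeps the share of counts taken by Alb from shifting other genes. DESeq2 1.42.0 (the tool of the study), limma 3.58.1 (voom), other scalings and filters, the compared groups alone, a replicate block and each liver left out were alternatives. Log2 CPM used a pseudocount of 0.5. On simulated counts for 16 dpc against NP, edgeR recovered 19.2% of 99 genes changed by 1 on the log2 scale and 74.5% of 98 changed by 2, with 3 other calls among 12014 genes.

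Members, gene lists and tests were chosen with earlier results of these data known. Every member called in any comparison is given with all its values, along with the 3 of highest CPM per kilobase and those under 1 CPM; of the other lists, called genes are named, at most 5 per list and comparison by smallest p. Other members and Ifnar1 were named after their values were seen. Labels do not say that same-numbered livers share a litter or day. A result for 1 other gene of the pathway lists is not reported here.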

Additional observations from a re-analysis of the deposited data

How the results depend on the processing

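Counts of members called kept within 1.5 times with DESeq2 size factors, other filters, a fold threshold and the compared groups alone. With total counts alone they were 36 (16 against 8 dpc, AAV8-null), 32 (AAV8-p21) and 34 (16 dpc against NP), where the median log2 fold change of all genes was −0.70, −0.59 and −0.70. DESeq2 called 13 with AAV8-p21 and 11 against NP. Limma voom with sample weights called 24 with AAV8-null, 17 with AAV8-p21 and 16 for 8 dpc against NP. The cause of these differences was not tested. With a liver left out in turn the counts ran from 5 to 21 with AAV8-null, from 1 to 7 with AAV8-p21 and from 2 to 5 against NP. No called member changed direction. Some uncalled ones did with a liver left out, such as Trim25 from 8 to 16 dpc with AAV8-null (0.51, lowest −0.00238) and Stat2 from NP to 16 dpc (−0.32, highest 0.02).

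The labels do not say whether same-numbered livers are paired. Deviations of same-numbered livers from their group means correlated from −0.529 to 0.451, and 7 of 18 pairs were over 0.1. Their mean correlation was 0.0073, against −0.0073 for livers of different numbers. Centring groups of 3 livers ties these deviations together, so the correlations cannot decide whether livers share a litter or day. With the replicate block, on the 12 livers with numbers, 11 members were called for 16 against 8 dpc with AAV8-null (10 without the block, added after seeing the data), 7 for 16 dpc against NP (7 without), and 0 for 8 dpc against NP and between the viruses at 8 dpc. No paired analysis was run for comparisons with the AAV8-p21 livers at 16 dpc. The numbers of their columns differ from those of the labels, so the sample behind each column is not known. With 3 livers a group, an exact permutation test of 1 gene cannot go below p = 0.1, and low members such as Oas1g rest on few counts.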
